A study of Mus musculus with 35 samples.

Results

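The genes described here are 10 genes of the stress axis and of corticosteroid sensing, measured by RNA sequencing in the hypothalamus of male mice: Crh, Ucn3, Crhbp, Crhr1, Crhr2, Oxt, Nr3c1, Nr3c2, Hsd11b1 and Fkbp4. They were picked by name with earlier results of these data known, so counts of members called are no independent evidence. All 10 were found among the 49568 gene names of the count tables and were among the 18063 genes with enough counts to be tested. In the fasted groups food was withheld for 16 h, and all mice were sampled at Zeitgeber time 16, counted in hours from lights-on, so the fast ran from lights-on into the dark phase. Control mice were fed freely (n = 10) or fasted (n = 10). PER2-S662D mice, which carry a form of the clock protein PER2 altered at a serine, were fed (n = 5) or fasted (n = 5), and mice labelled Per2 knockout were fasted (n = 5). All mice were of the strain given as B6/J. No fed group carried the knockout label, and the labels do not say how either Per2 allele was made or what age the mice were. The tissue was a dissected block around the hypothalamus. In such bulk tissue, fewer cells of a type and less RNA per cell cannot be told apart.

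In the stress axis, neurons of the paraventricular nucleus release CRH, which acts on the receptor CRHR1 in the pituitary and leads to secretion of corticosteroids by the adrenal gland. Corticosteroids act in the brain through the glucocorticoid receptor (Nr3c1) and the mineralocorticoid receptor (Nr3c2), and they restrain CRH release by negative feedback. Oxytocin is made by large neurons of the paraventricular and supraoptic nuclei.

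Total counts per library ran from 17959586 to 37027342, and mitochondrial genes took 6.24% to 9.08% of them. The libraries fall into sets by their library numbers. Controls 1 to 5 and controls 6 to 10 have separate number ranges, as do the S662D and the labelled knockout libraries, and 6 of the 10 S662D libraries (replicates 2, 3 and 4, fed and fasted) carry an additional final digit whose meaning is not stated. Genotype and number range therefore cannot be told apart, and results are also given within these sets. The libraries labelled Per2 knockout held 30.3 ± 2.00 CPM of Per2 (SD, n = 5) against 29.0 ± 2.45 CPM (SD, n = 10) in fasted controls, so they did not show a loss of Per2 counts. CPM are counts scaled to the usual fixed library total. Lower Per2 was seen in S662D libraries, at 18.8 ± 1.98 CPM fed and 19.9 ± 2.38 CPM fasted (SD, n = 5 each). Fed controls held 28.2 ± 1.87 CPM (SD, n = 10). Marker genes of hypothalamic nuclei such as Agrp, Hcrt and Pmch summed to 311.0 to 495.6 CPM in every library, over 12 tested genes of 13. Thalamic markers summed to 804.4 to 1278 CPM, so the block also held tissue beside the hypothalamus, and the 4 tested pituitary markers of 7 summed to at most 6.38 CPM.

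Per transcript length, Oxt was by far the most abundant of the 10 genes and Crhr2 the least. In fed controls the level per kilobase of exon, as CPM per kilobase (RPKM), of Oxt was 229.2 ± 35.5 (SD, n = 10). Fkbp4, a chaperone partner of steroid receptors, followed at 76.0 ± 5.27 RPKM and Nr3c1 at 14.7 ± 1.33 RPKM. Below these lay Hsd11b1 (4.83 RPKM), Crhr1 (4.60 RPKM), Crhbp (4.10 RPKM), Nr3c2 (4.06 RPKM), Crh (2.60 RPKM), Ucn3 (1.36 RPKM) and Crhr2 (0.639 RPKM). The first 3 genes did not overlap with the next gene in the order in any fed control, while neighbours from Hsd11b1 downwards did overlap. Nr3c1 thus exceeded Nr3c2 in every group, with 12.3 ± 0.91 RPKM against 3.77 ± 0.27 RPKM in fasted controls (SD, n = 10 each).

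**Figure D1:**
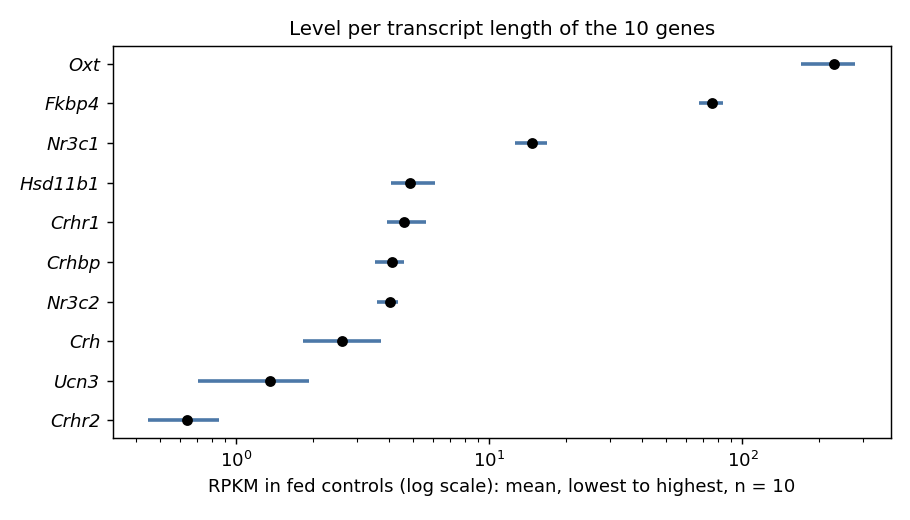
Level per transcript length (RPKM, log axis) of the 10 genes in fed controls; points are means of 10 libraries and bars run from the lowest to the highest library. Oxt, Fkbp4 and Nr3c1 stand apart at 229.2, 76.0 and 14.7 RPKM, and the other 7 genes lie at or below 4.83 RPKM with overlapping neighbours.

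Nr3c1 was the member called on fasting, and it was lower in fasted mice of both genotypes. Some alternatives described below also called Fkbp4 in controls or Crhbp in S662D mice, and within controls 1 to 5 Nr3c1 was not called. By the quasi-likelihood test of edgeR, adjusted over all tested genes by Benjamini-Hochberg, 1 of 10 members was called (adjusted p below 0.05) in controls, where 3.88% of all tested genes were called in either direction, 2.2% higher and 1.68% lower. The same count, 1 of 10, was found in S662D mice against 2.64% of all genes (1.8% higher, 0.83% lower). Between fed S662D and fed control mice 1 of 10 was called, Crhbp, against 4.69% of all genes (3.12% higher, 1.57% lower). Fasted S662D against fasted control mice gave 0 of 10 (5.57% of all genes, 3.35% higher and 2.23% lower), with 2 members at an unadjusted p below 0.05 and 0 called by DESeq2. The libraries labelled Per2 knockout gave 0 of 10 against fasted controls (0.0277% of all genes, 0.00554% higher and 0.0221% lower), with 0 members at an unadjusted p below 0.05 and 0 called by DESeq2. No member and no gene (0%) was called for a difference between the fasting responses of the 2 genotypes by edgeR or DESeq2, and 1 member, Crhr2, had an unadjusted p below 0.05. That count over all genes was 486 with controls 1 to 5 only and 9 with only the S662D libraries that carry the digit. The labels do not say whether a library is 1 animal, so p-values measure the spread between these libraries.

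**Figure D2:**
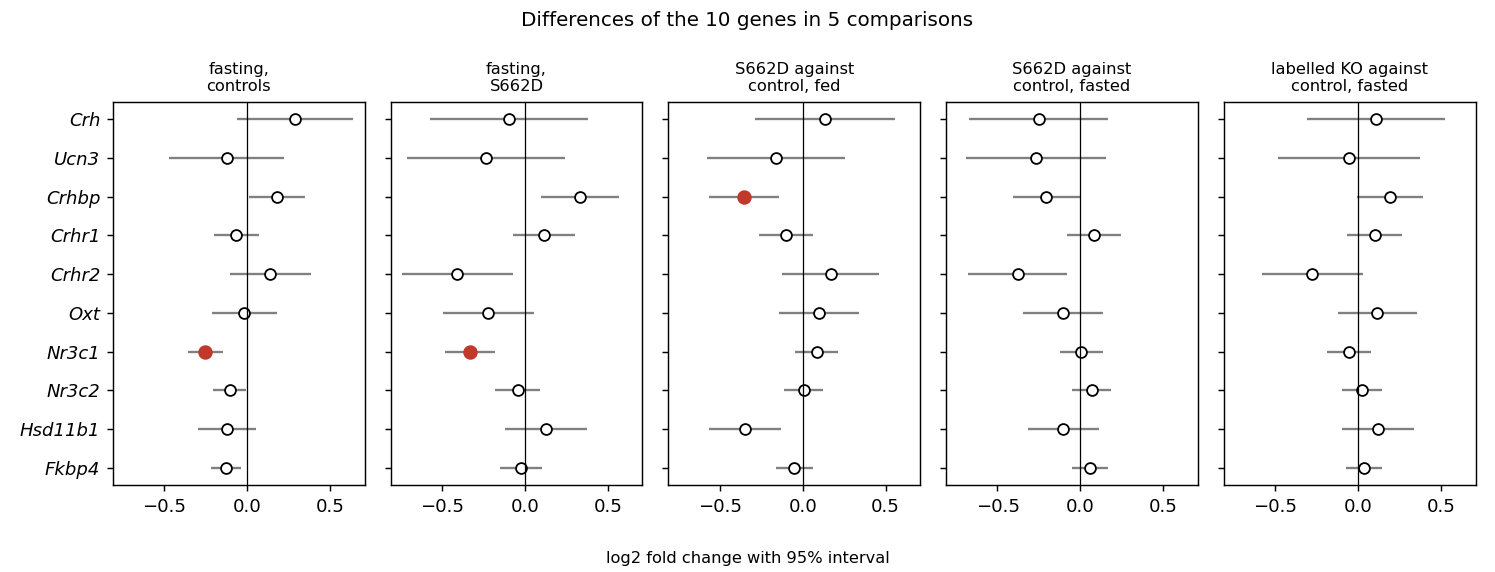
Log2 fold changes (x axis) of the 10 genes in 5 comparisons, with 95% intervals; filled red points are the called genes. Nr3c1 lies below 0 in both fasting comparisons at −0.25 and −0.33, and Crhbp lies at −0.35 in fed S662D against fed control mice; all other points are open.

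Crh (chromosome 3, 19693401 to 19695396, minus strand, GRCm38), the peptide that starts the stress axis, did not pass the test in any comparison. Fed controls ranged from 2.41 to 4.93 CPM with a median of 3.29, and fasted controls from 2.22 to 7.00 CPM with a median of 3.82. The groups overlapped, with 3 of 10 fasted controls above all fed ones and 1 below all of them. The log2 fold change on fasting was 0.29 (95% interval −0.06 to 0.64, adjusted p 0.53), so a rise of up to 0.64 lies within the interval. The control sets differed in direction. Among controls 1 to 5, Crh was 3.22 ± 0.54 CPM fed and 5.22 ± 1.51 CPM fasted (SD, n = 5 each), which is 0.69 on the log2 scale (edgeR, adjusted p 0.0515). Among controls 6 to 10 it was 3.65 ± 0.79 CPM fed and 3.20 ± 0.71 CPM fasted (SD, n = 5 each), which is −0.19 on the log2 scale (edgeR, adjusted p 0.668). Fkbp5, a gene induced by glucocorticoids, was at 80 ± 5.05 CPM in fasted controls 1 to 5 and 56.1 ± 17.0 CPM in fasted controls 6 to 10 (SD, n = 5 each). These 2 sets overlapped, with 72.5 to 85.5 CPM in the first and 38.8 to 83.0 CPM in the second. Whether the sets differ in Crh or Fkbp5 beyond their spread was not tested.

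In S662D mice, Crh was 2.48, 4.56, 3.53, 4.59 and 3.40 CPM fed (replicates 1 to 5) and 2.61, 4.56, 4.19, 1.89 and 4.27 CPM fasted. The lowest and the second highest values are both in the fasted group, so no direction was visible, and the log2 fold change was −0.10 (95% interval −0.57 to 0.38). The labelled knockout libraries lay between 3.54 and 5.52 CPM, within the range of fasted controls. Each of these values rests on 40 to 169 Crh counts in a library.

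Ucn3 (chromosome 13, 3940688 to 3945349, minus strand) encodes urocortin 3, a peptide that acts on CRHR2 and not on CRHR1. Its levels were near the lower end of what was tested, 19 to 72 counts per library. The fed controls held 1.04 to 2.86 CPM and fasted controls from 1.02 to 3.79 CPM, and the log2 fold change was −0.12 (95% interval −0.47 to 0.22). In S662D mice all 5 fasted libraries (1.43 to 1.59 CPM) lay below the fed median of 1.90 CPM but overlapped the fed range of 1.48 to 2.13 CPM, with a log2 fold change of −0.24 (95% interval −0.71 to 0.24). Ucn, which encodes urocortin and was tested as another gene of the family, held 0 to 67 counts per library and was not called in any comparison. Ucn2 had at most 4 counts in a library and was not tested.

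Crhbp encodes a secreted protein that binds CRH and limits its action. It is the only member called between genotypes and for which a promoter is in the reference table, so its promoter sequence is shown here. The window is chr13:95444782-95445081 on the minus strand of GRCm38.p6 from RefSeq, 250 bases before to 50 after the annotated start, written 5′ to 3′.

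Crhbp promoter: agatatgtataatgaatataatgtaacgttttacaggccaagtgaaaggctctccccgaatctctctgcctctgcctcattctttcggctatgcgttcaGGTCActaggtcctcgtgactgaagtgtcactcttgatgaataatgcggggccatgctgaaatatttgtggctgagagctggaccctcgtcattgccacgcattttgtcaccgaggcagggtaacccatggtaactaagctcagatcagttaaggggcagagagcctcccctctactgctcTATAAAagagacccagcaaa

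The capitals mark GGTCA, which is TGACC on the other strand, the letters of a nuclear receptor half-site, and TATAAA, the letters of a TATA box. GGTCA lies at position −151 from the annotated start, and TATAAA at position 31, after that start. On both strands, TGACC is in 40.5% and TATAAA in 13.6% of 32851 promoters of this length, so neither is rare. The palindrome bound by the glucocorticoid receptor is in 0.00913% of promoters, its end TGTTCT (part of the same palindrome) in 19.0%, the cAMP response element TGACGTCA in 1.79% and the E-box CACGTG in 7.15%. None of these 4 was in the windows of the 8 members in the table (all but Crh and Nr3c1). TATAAA and TGACC were added after the other matches were seen.

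Crhbp (chromosome 13, 95431371 to 95444831, minus strand) was lower in fed S662D mice than in fed controls. Among fed controls values ran from 5.97 to 7.71 CPM with a median of 7.10. Fed S662D libraries held 6.98, 4.43, 4.97, 5.05 and 5.89 CPM. All 5 lay below the control median and 4 of 5 below every control. Group means were 6.91 ± 0.59 CPM (SD, n = 10) and 5.46 ± 1.00 CPM (SD, n = 5), or −0.35 on the log2 scale (SE 0.10; edgeR, adjusted p 0.0398). The call was close to the threshold and was kept in 15 of 28 alternatives. With the digit as a term the value was −0.32 (SE 0.13) and was no longer called (adjusted p 0.584). That term was shared by fed and fasted libraries. Libraries with the digit held less Crhbp than those without it when fed (4.82 against 6.44 CPM) and more when fasted (7.35 against 6.06 CPM). The value with this term therefore does not remove the difference between the fed sets. The low values were those of the 3 libraries with the additional digit (4.43 to 5.05 CPM), which alone gave −0.53 (adjusted p 0.00102), while the 2 without it gave −0.11 (adjusted p of 1). The same 3 libraries had a higher level of long relative to short transcripts than the other 2, by the index described below. With that index as a term Crhbp still gave −0.40 with an adjusted p of 0.0328.

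On fasting, Crhbp values were higher, without passing the test. Fasted controls ranged from 6.79 to 9.22 CPM, and 9 of 10 lay above the fed median. In controls this was 0.18 on the log2 scale (SE 0.08, adjusted p 0.317). Fasted S662D libraries held 5.62, 6.80, 7.22, 8.03 and 6.49 CPM, all above the fed S662D median of 5.05, or 0.33 on the log2 scale (SE 0.12, adjusted p 0.141). Within the S662D libraries with the digit it was 0.61 (adjusted p 0.0048), and within those without it was −0.08 (adjusted p 0.999). Leaving out fed S662D replicate 1 also gave a call (0.43, adjusted p 0.0320).

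**Figure D3:**
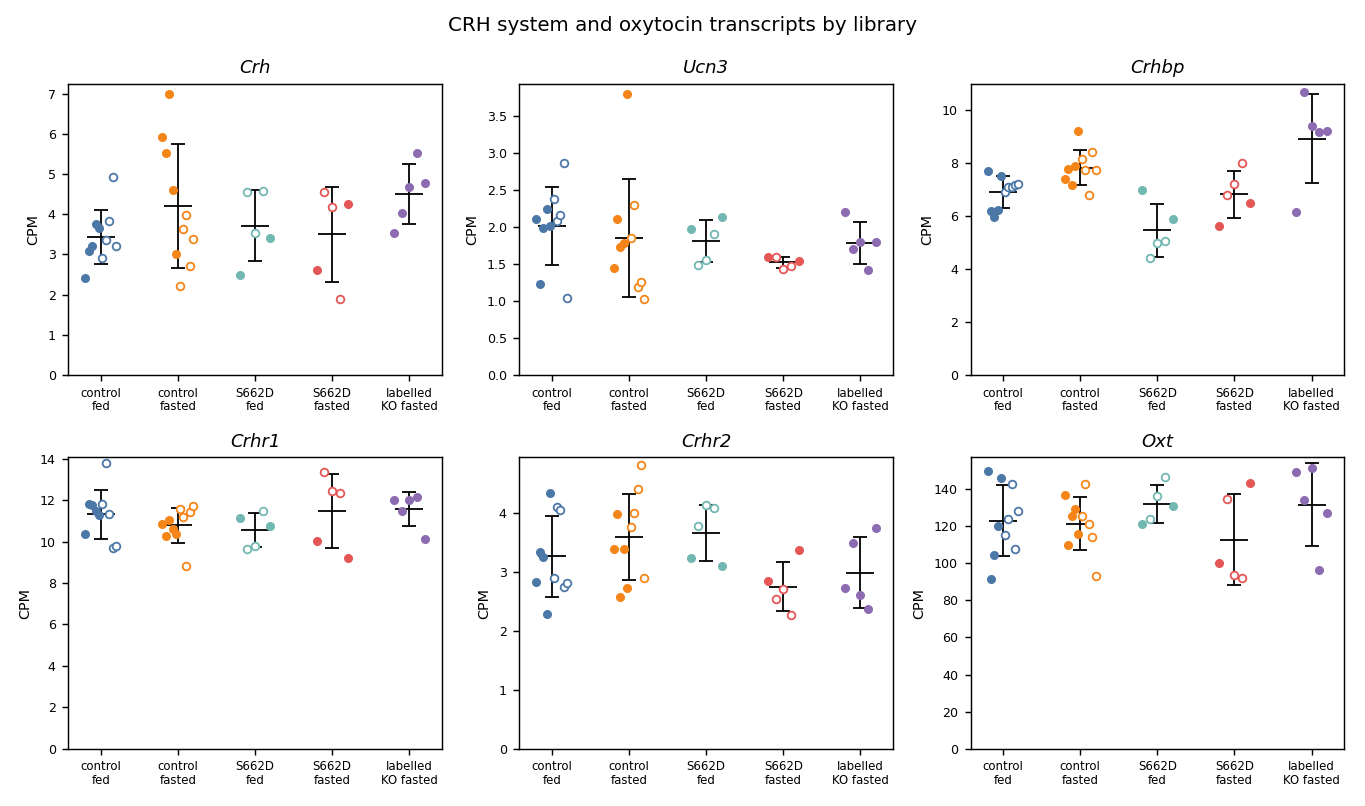
Normalized counts (CPM) of Crh, Ucn3, Crhbp, Crhr1, Crhr2 and Oxt in every library by group; black bars are the mean and SD, open points are controls 6 to 10 and S662D libraries with the additional digit, filled points all others. The 3 open fed S662D points of Crhbp lie between 4.43 and 5.05 CPM, below all fed controls. For Crh in fasted controls, the filled points have a higher mean (5.22 CPM) than the open ones (3.20 CPM), and the 2 sets overlap.

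Crhr1 (chromosome 11, 104132855 to 104175523, plus strand), the main receptor for CRH, had group means between 10.6 and 11.6 CPM. Fed controls were at 11.3 ± 1.19 CPM and fasted controls at 10.8 ± 0.85 CPM (SD, n = 10 each). Its log2 fold change on fasting was −0.07 in controls (95% interval −0.20 to 0.07) and 0.12 in S662D mice (95% interval −0.07 to 0.30). No comparison called it.

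Crhr2 (chromosome 6, 55090049 to 55133016, minus strand), the receptor for urocortins, was the member whose response to fasting differed most between genotypes in unadjusted terms. Fed S662D libraries held 3.24, 3.78, 4.14, 4.08 and 3.10 CPM, and fasted ones held 2.85, 2.55, 2.72, 2.27 and 3.38 CPM. Thus 4 of 5 fasted S662D libraries lay below every fed one, whereas 7 of 10 fasted controls lay above the fed control median of 3.08 CPM. The log2 fold change was −0.41 in S662D mice (SE 0.17, adjusted p 0.222) and 0.14 in controls (SE 0.12, adjusted p 0.725). The difference between them was −0.55 (SE 0.21), with an unadjusted p of 0.0108 and an adjusted p of 0.762 in edgeR. It therefore did not pass the test over all genes. In the S662D libraries with the digit, Crhr2 was 4.00 ± 0.20 CPM fed and 2.51 ± 0.23 CPM fasted (SD, n = 3 each), or −0.66 on the log2 scale (edgeR, adjusted p 0.0745). In those without it, the means were 3.17 CPM fed and 3.11 CPM fasted (n = 2 each), or −0.02 (edgeR, adjusted p 0.999). Crhr2 is known to be made in the choroid plexus too. The 7 choroid plexus markers summed to between 23.5 and 1551 CPM in a library, and this sum correlated with Crhr2 over 35 libraries, after subtracting group means, with Pearson's r = 0.31 and Spearman's rho = 0.15. Their fitted levels moved in the same directions as Crhr2. On fasting, 7 of 7 were above 0 in controls (median log2 fold change 0.74) and 0 of 7 in S662D mice (median −1.33), and their median for the difference in response was −2.11, with 0 of 7 called in each comparison. The sum ranged from 26.7 to 972.1 CPM (median 40.2) in fed and 25.9 to 1551 CPM (median 31.6) in fasted controls. In S662D mice it ranged from 34.0 to 695.7 CPM (median 59.0) fed and 23.5 to 298.9 CPM (median 41.8) fasted. In controls the median sum was thus lower on fasting, although the fitted levels were higher. Fasted controls 8 and 9 held the highest sums of their group, 1551 and 1336 CPM, and its highest Crhr2 (4.41 and 4.82 CPM). Fasted S662D replicate 5 likewise had the highest sum (298.9 CPM) and Crhr2 (3.38 CPM) of its group. In fed S662D mice the order differed. There replicate 5 had a sum of 679 CPM with the lowest Crhr2 (3.10 CPM), and replicate 3 had 59.0 CPM with the highest (4.14 CPM). The part of choroid plexus tissue in the difference was not tested.

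Oxt (chromosome 2, 130576173 to 130577054, plus strand), the gene for oxytocin, is the most abundant member per transcript length, and its promoter is shown for that reason. In CPM, which does not account for length, Fkbp4 had the higher count. The window is chr2:130575919-130576218 on the plus strand of GRCm38.p6 from RefSeq, and the capitals mark TGACC or its reverse complement, found 5 times.

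Oxt promoter: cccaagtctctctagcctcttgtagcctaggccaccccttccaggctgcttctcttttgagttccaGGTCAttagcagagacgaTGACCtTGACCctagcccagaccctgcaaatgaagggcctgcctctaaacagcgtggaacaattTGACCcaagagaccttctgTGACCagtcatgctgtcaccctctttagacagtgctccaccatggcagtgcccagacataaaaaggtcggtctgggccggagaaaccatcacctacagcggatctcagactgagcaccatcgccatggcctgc

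Oxt differed between fed and fasted controls by less than the spread between libraries. Fed controls ranged from 91.7 to 149.8 CPM (median 122.0) and fasted controls from 93.1 to 142.6 CPM (median 123.4), with exactly 5 of 10 fasted libraries on each side of the fed median. The log2 fold change was −0.02 (95% interval −0.22 to 0.18), which bounds a change on fasting in controls to less than 0.22 in either direction. In S662D mice fed libraries held 121.0 to 146.6 CPM, and fasted libraries held 100, 134.5, 93.8, 92.3 and 143.6 CPM. There 3 of 5 fasted libraries lay below every fed one and the other two lay within the fed range, with a log2 fold change of −0.22 (95% interval −0.50 to 0.05). Of the 50-base words of Oxt, 16.0% also occur in transcripts of other genes, and since reads that map to several places were counted at each of them, its counts are uncertain. Avp, the neighbouring gene for vasopressin, has 14.8% such words. Its log2 fold change on fasting was −0.10 in controls (95% interval −0.35 to 0.15) and 0.14 in S662D mice (95% interval −0.21 to 0.49). The oxytocin receptor Oxtr held 6.31 ± 1.01 CPM in fed controls and 6.52 ± 0.88 CPM in fasted controls (SD, n = 10 each) and was not called in any comparison.

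Nr3c1 (chromosome 18, 39410545 to 39491301, minus strand), the gene for the glucocorticoid receptor, was lower after fasting in both genotypes. Fed controls ranged from 93.8 to 125.0 CPM with a median of 109.2, and fasted controls from 80.3 to 102.6 CPM with a median of 91.8. All 10 fasted controls lay below the fed median and 6 of 10 below every fed control. Means were 109.1 ± 9.85 CPM fed and 91.6 ± 6.79 CPM fasted (SD, n = 10 each), or −0.25 on the log2 scale (SE 0.05; edgeR, adjusted p 0.00155). Expression thus fell by 16.1% in controls.

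In S662D mice, Nr3c1 was 104.7, 123.0, 123.9, 122.7 and 103.4 CPM fed and 94.8, 80.5, 96.8, 104.6 and 83.5 CPM fasted. All 5 fasted libraries lay below the fed median, and only the highest of them, at 104.6 CPM, reached into the fed range. This was −0.33 on the log2 scale (SE 0.07; edgeR, adjusted p 0.00517). The fasting responses of the genotypes differed by −0.08 (95% interval −0.26 to 0.11, adjusted p 0.899). Between genotypes, Nr3c1 differed by 0.08 fed (95% interval −0.05 to 0.21) and by 0.01 fasted (95% interval −0.12 to 0.14). The labelled knockout libraries held 80.8 to 96.3 CPM, close to fasted controls at a log2 fold change of −0.06 (95% interval −0.19 to 0.08).

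The fall of Nr3c1 on fasting was kept in 29 of 30 alternatives in controls and 20 of 21 in S662D mice, including every fit that left out 1 library. It was not called within controls 1 to 5 (−0.18, adjusted p 0.0999), where it went from 101.2 ± 5.42 to 89.6 ± 4.61 CPM (SD, n = 5 each). Within controls 6 to 10 it went from 117.0 ± 5.73 to 93.6 ± 8.51 CPM (SD, n = 5 each; −0.32, adjusted p 0.0149 in edgeR). The other exception was the 4 S662D libraries without the digit (−0.22, adjusted p 0.987), where only 2 libraries per feeding state remained. The direction was the same in each set.

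Nr3c1 is a long transcript with 7425 exon bases, and its level moved with the level of long relative to short transcripts in a library. An index was therefore formed after seeing the data, from the 15479 tested genes averaging at least 1 CPM, with the members left out. It was the median log2 level of the longest 25% of these genes, each relative to its mean over libraries, minus that of the shortest 25%. After subtracting group means, Nr3c1 followed the index over 35 libraries with Pearson's r = 0.62 and Spearman's rho = 0.61, or r = 0.57 without the 2 libraries farthest from the median. The genes whose deviations were most like those of Nr3c1 were Qk (r = 0.84), Rora (r = 0.84) and Rgs7bp (r = 0.78), out of 15479 genes. Qk was itself lower on fasting, at −0.24 in controls (adjusted p 0.00268) and at −0.28 in the S662D groups (adjusted p 0.0312), while Rora and Rgs7bp were not called. The median index was −0.03 in fed and −0.04 in fasted controls, but 0.14 in fed and −0.05 in fasted S662D mice. The similar control medians hide opposite shifts in the control sets. In controls 1 to 5 the index ran from −0.14 to −0.02 fed and from −0.04 to 0.16 fasted. In controls 6 to 10 it ran from −0.06 to 0.16 fed and from −0.13 to −0.04 fasted. With the index as a term, Nr3c1 fell by 0.25 on the log2 scale in controls (SE 0.04, adjusted p 4.32e-05) and likewise by 0.25 in S662D mice (SE 0.06, adjusted p 0.00849), and the difference between the responses was 0.00.

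**Figure D4:**
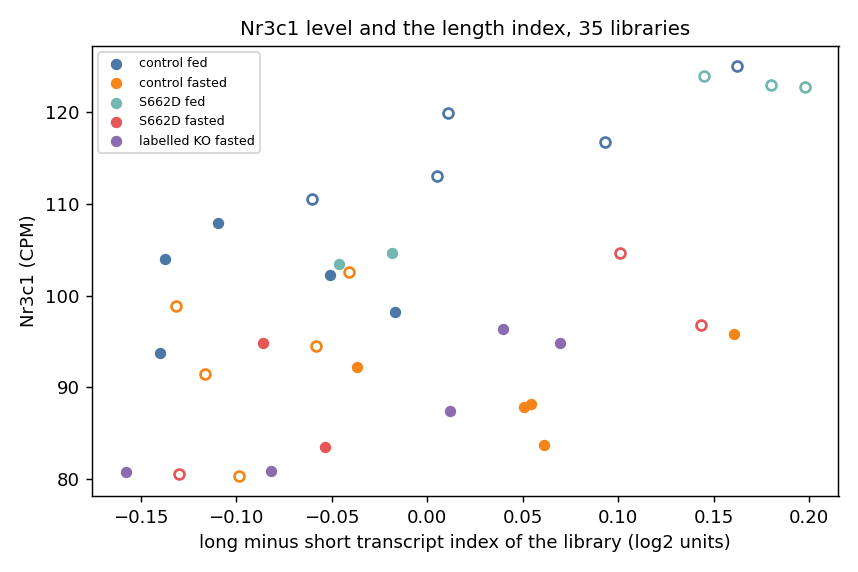
Nr3c1 (CPM, y axis) against the long minus short transcript index (log2 units, x axis) in the 35 libraries, coloured by group; open points are controls 6 to 10 and S662D libraries with the additional digit. At a given index the fasted libraries lie mostly below the fed ones, and the highest fed S662D points, 122.7 to 123.9 CPM, are those with the highest index in their group.

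Markers of some cell types moved in the same comparison. The summed level of 4 microglial markers was 125.0 to 149.1 CPM (median 137.0) in fed and 105.6 to 142.0 CPM (median 123.7) in fasted controls, and 2 of 4 (P2ry12 and Cx3cr1) were called lower. For 4 endothelial markers it was 145.5 to 175.9 CPM (median 156.4) fed and 127.1 to 150.7 CPM (median 140.3) fasted, with 1 of 4 (Cldn5) called lower. In S662D mice 1 of 4 microglial (Cx3cr1) and 0 of 4 endothelial markers were called on fasting. Neuronal markers summed to medians of 2924 CPM fed and 2933 CPM fasted in controls, and 0 of 4 were called. Astrocyte markers summed to medians of 601.0 CPM fed and 578.8 CPM fasted in controls, and 2 of 4 were called, Aqp4 lower (−0.33, adjusted p 5.96e-06) and Aldh1l1 higher (0.20, adjusted p 0.000631). Aldh1l1 was also called higher in S662D mice (0.19, adjusted p 0.045). Of the 7 thalamic markers, Lef1 was called lower in controls (−0.36, adjusted p 0.00549). The part of cell composition in the Nr3c1 result was not tested.

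Nr3c2 (chromosome 8, 76899442 to 77245012, plus strand), the mineralocorticoid receptor gene, showed a smaller difference that did not pass the test. Fed controls ranged from 23.3 to 28.1 CPM (median 27.0) and fasted controls from 21.9 to 26.7 CPM (median 24.0). All 10 fasted controls lay below the fed median and 3 of 10 below every fed library. The log2 fold change was −0.11 (SE 0.05, unadjusted p 0.0345, adjusted p 0.312) in controls and −0.04 in S662D mice (95% interval −0.18 to 0.09). Over 35 libraries its deviations from group means moved with those of Nr3c1, with Pearson's r = 0.58 and Spearman's rho = 0.53. An antisense gene, Gm10649, overlaps 3.82% of its exon bases, and the counting used no strand.

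Hsd11b1 (chromosome 1, 193221634 to 193264075, minus strand), the enzyme that regenerates active corticosteroid inside cells, was lower in fed S662D mice without passing the threshold. Its level in fed controls was 17.4 to 25.8 CPM (median 19.4), and fed S662D libraries held 19.9, 15.2, 12.4, 14.7 and 18.5 CPM. The 3 libraries with the digit lay below every control, and the 2 without it lay within the control range. The difference was −0.35 on the log2 scale (SE 0.11; edgeR, adjusted p 0.0521), and 8 of 28 alternatives called it. The value was −0.53 with the digit-carrying libraries (adjusted p 0.00175) and −0.10 with the others (adjusted p of 1). Hsd11b1 ran against the length index (Pearson's r = −0.59, Spearman's rho = −0.58 over 35 libraries), and with the index as a term the value was −0.21 (adjusted p 0.202). On fasting it was not called, at −0.12 in controls (adjusted p 0.633) and at 0.12 in S662D mice (adjusted p 0.705). Hsd11b2, the enzyme of the opposite reaction, had at most 8 counts in a library and was not tested.

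Fkbp4 (chromosome 6, 128429735 to 128438677, minus strand) encodes a chaperone that favours transport of the ligand-bound glucocorticoid receptor to the nucleus. Fed controls ranged from 188.4 to 233.3 CPM (median 215.1) and fasted controls from 175.1 to 216.7 CPM (median 194.8). Fasting gave −0.13 on the log2 scale (SE 0.04; edgeR, adjusted p 0.10). Among controls 1 to 5 it fell by 0.24 (adjusted p 0.0111), from 218.9 ± 13.6 to 185.6 ± 8.77 CPM (SD, n = 5 each), and among controls 6 to 10 it was −0.02 (adjusted p 0.876). Fkbp4 ran against the length index more closely than any other member (Pearson's r = −0.79, Spearman's rho = −0.83 over 35 libraries), and with the index as a term it was called in controls (−0.12, adjusted p 0.00522). It was also called without fed control 9 (adjusted p 0.0462) or without fasted control 9 (adjusted p 0.0355). In S662D mice the log2 fold change was −0.02 (95% interval −0.15 to 0.10).

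**Figure D5:**
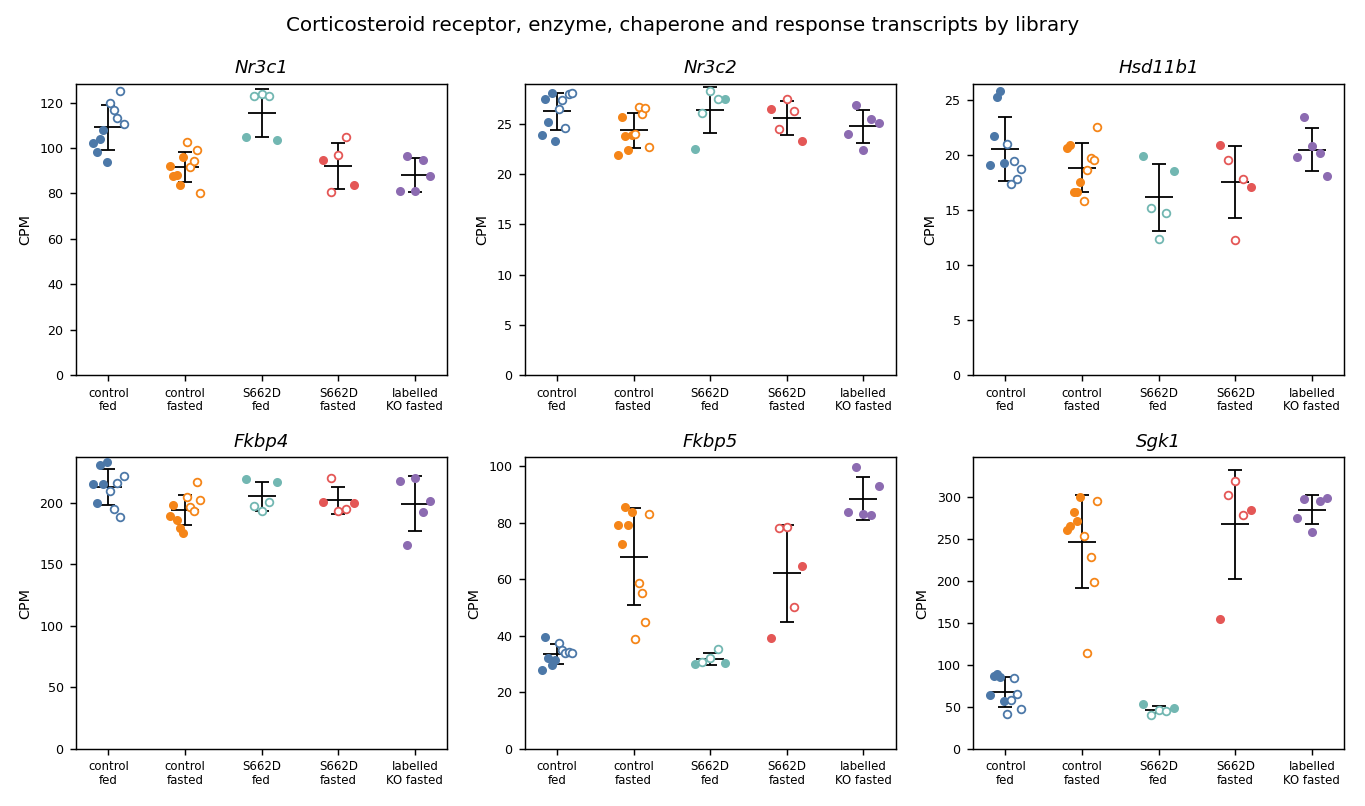
Normalized counts (CPM) of Nr3c1, Nr3c2, Hsd11b1, Fkbp4, Fkbp5 and Sgk1 in every library by group; black bars are the mean and SD, open points are controls 6 to 10 and S662D libraries with the additional digit, filled points all others. Nr3c1 is lower in both fasted groups (means 91.6 and 92.1 CPM) than in the fed groups (109.1 and 115.5 CPM), while Fkbp5 and Sgk1 are higher in the fasted groups.

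Like the members, the gene lists below were chosen with earlier results of these data known, so their counts are a description only. Among 17 receptors, chaperones and cofactors of corticosteroid signalling, 1 was called higher on fasting in controls and 2 lower (2.2% and 1.68% of all genes), with a median log2 fold change of −0.04 against 0.00 over all genes. The higher one was Fkbp5, a chaperone that lowers the receptor's hormone affinity, from 33.5 ± 3.48 to 68.0 ± 17.3 CPM (SD, n = 10 each), or 1.02 on the log2 scale. The lower ones were Nr3c1 and Dnajb1 (−0.17, adjusted p 0.00781), a co-chaperone of HSP70. In S662D mice 1 of 17 was called higher, Fkbp5 (0.97, adjusted p 0.0012), and 1 lower, Nr3c1 (1.8% and 0.83% of all genes). Fasted S662D mice had more Dnajb1 than fasted controls (0.17, adjusted p 0.0319), which is 1 of 17 called higher against 3.35% of all genes. A list of 17 transcripts that corticosteroids induce was chosen on earlier results of these data, so its direction is no independent evidence. All 17 were called higher on fasting in both genotypes (2.2% of all genes in controls, 1.8% in S662D mice). Their median log2 fold changes were 1.2 in controls and 1.3 in S662D mice. Sgk1, a kinase of that list, went from 67.7 ± 17.6 to 247.3 ± 55.8 CPM in controls (SD, n = 10 each). In fed S662D mice 1 of the 17, Tsc22d3, was called lower than in controls (−0.37, adjusted p 0.0241), against 1.57% of all genes.

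Of the 6 tested genes of corticosteroid metabolism and transport, 0 were called in any of the comparisons (0% to 5.57% of all genes). Of 9 genes that process peptide precursors, 2 were called higher on fasting in controls (2.2% of all genes): Scg2, a granin of secretory granules (0.14, adjusted p 0.0195), and Pcsk1, the convertase that cleaves prohormones (0.20, adjusted p 0.0239). In S662D mice 0 of 9 were called on fasting (2.64% of all genes), and their difference in response was not called (0% of all genes). Fasted S662D mice had lower Scg2 (−0.19, adjusted p 0.00979) and higher Pcsk1n, the inhibitor of that convertase (0.26, adjusted p 0.00476), than fasted controls. That is 1 of 9 lower and 1 of 9 higher, against 2.23% and 3.35% of all genes. Over all genes, the 1007 calls of fasted S662D against fasted controls fell to 48 with controls 6 to 10 only. They fell to 20 with the digit as a term. Of 6 tested genes of oxytocin and vasopressin signalling, 0 were called on fasting in controls (3.88% of all genes) and 1 in S662D mice (2.64% of all genes), Cd38 (0.46, adjusted p 0.00421), an enzyme needed for oxytocin release, from 13.9 ± 1.96 to 19.3 ± 3.52 CPM (SD, n = 5 each). Of 4 transcription factors of paraventricular and supraoptic neurons, 0 were called in any comparison (0% to 5.57% of all genes).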

How the data were processed

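The authors deposited a table of raw counts per gene for each of 35 libraries of polyA RNA, sequenced as paired reads of 150 bases. Per the submitters' processing notes, reads were aligned with STAR 2.7.10b to mm10 (GRCm38) and counted with featureCounts 2.0.1. Per the file headers, every alignment of a multi-mapping read was counted, genes were summed by name against GENCODE vM12, and no strand option was set, so counts of genes with near-identical copies or antisense partners can be inflated. Depth was 17959586 to 37027342 counts per library.

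Groups came from the labels. Genes were kept with edgeR's filterByExpr (minimum count 10), which left 18063, scaled with TMM, and tested in 1 fit of all 35 libraries with edgeR 4.0.16 in R 4.3.3 (robust quasi-likelihood test). Adjustment followed Benjamini-Hochberg across every tested gene, and a gene is called at an adjusted p below 0.05. Intervals are at 95%. The script was tested on simulated data. CPM and RPKM use the TMM-scaled totals. The length index and the replicate block across genotypes were added after seeing the data. DESeq2 1.42.0, other scalings and filters, subsets of libraries, and fits without 1 library were alternatives.

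The text names the 10 members, Per2, called genes of the gene lists, uncalled peptides and receptors of the CRH and oxytocin lists, and the 3 genes most like each member by Pearson's r of log2 CPM (prior count 2) after subtracting group means, among genes averaging 1 CPM or more. Marker genes and Sgk1 are named in addition, and some genes that the rule names are not reported here. The members and lists were chosen with earlier results of these data known. Replicate numbers were not used to pair libraries, since the labels give no shared source and same-numbered libraries did not all deviate together.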

Additional observations from a re-analysis of the deposited data

Results flagged for a closer look

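In 50 groups of the members' values, a library whose gap to its nearest neighbour was large for the range of its group was looked for, which by chance marks about 1 group in 20, and 4 were found. Crhr1 was 13.8 CPM in fed control 7, where the next value was 11.8 CPM. Crhr1 was 8.81 CPM in fasted control 8, below the next value of 10.3 CPM. Ucn3 was 3.79 CPM in fasted control 5 and 2.29 CPM in the library nearest to it. Fkbp4 was 220.2 CPM in fasted S662D replicate 2, above the next value of 200.1 CPM. None of these libraries stood apart for more than 1 member, and the cause was not tested.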

How the results depend on the processing

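Of the refits of member values, 1642 kept direction and side of the threshold, 77 changed sign while uncalled, 16 became called, 15 lost a call and 0 reversed. Leaving out 1 library at a time gave 572 to 785 called genes and 1 to 2 members for fasting in controls, 311 to 585 and 1 to 2 for fasting in S662D mice, 66 to 1667 and 0 to 2 for fed S662D against control, 154 to 1802 for fasted S662D against control, and 4 to 5 for the labelled knockout. For S662D against control, counts fell to 66 to 150 fed and 154 to 296 fasted without S662D replicate 2, 3 or 4, and rose without replicate 1 or 5, to at most 1667 fed and 1802 fasted. The count of 311 came without fasted S662D replicate 2. Crhbp lost its call without fed control 1, 5, 8 or 10 or fed S662D 2, 3 or 4 (adjusted p 0.0536 to 0.216), with log2 fold changes from −0.35 to −0.28.

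With controls 1 to 5 only, called genes were 1315 for fasting in controls, 486 for the difference in response, 1741 and 1680 for S662D against control fed and fasted, and 2 for the labelled knockout. With controls 6 to 10 only, they were 304 for fasting, 33 and 48 for S662D fed and fasted with 0 members called fed, and 99 for the labelled knockout. The called member was Fkbp4 for fasting and Hsd11b1 for fed S662D within controls 1 to 5. S662D libraries with the digit gave 3106 genes and 2 members fed, 3148 genes and 1 member (Crhr2) fasted, 9 for the difference in response, and 2 members on fasting. Those without it gave 16, 21 and 7 genes fed, fasted and on fasting, and 0 members fed and on fasting. The digit as a term gave 23 and 20 genes fed and fasted and 0 members fed. The length index as a term gave 1921 genes for fasted S662D and 2 members for fasting in controls. Fits of only the compared groups gave 279 genes for fasting in S662D, 291 for fasted S662D and 3 for the labelled knockout. For fed S662D, no filter gave 0 members, a filter at 1 CPM gave 2, and DESeq2 gave 1423 genes and 2 members, with 8 genes for the labelled knockout. Causes were not tested, beyond fewer libraries in the subsets.

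With replicate number as a block, fasting gave 562 genes in controls and 381 in S662D mice, and S662D against control gave 2347 fed and 1321 fasted; Nr3c1 was then called in fed S662D mice (0.19, adjusted p 0.0165) and Crhbp was not (−0.30, adjusted p 0.0646). The labels do not say that numbers pair libraries. Same-numbered libraries correlated in their deviations at −0.19 to 0.06 between fed and fasted controls, −0.11 to 0.16 between fed and fasted S662D mice and −0.05 to 0.24 between fed controls and fed S662D mice, where 3 of 5 pairs were over 0.1 and 1 of 5 correlated best with its own number. Scaling by library size alone turned the share of called genes that were higher from 68.5% to 44.4% on fasting in S662D mice and from 60.1% to 25.3% in fasted S662D against control.

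In simulated data, 62.7% of genes with a 1.2-fold change were recovered for fasting in controls (17897 genes), 41.8% for fasting in S662D mice (17893 genes) and 44.8% for fed S662D against control (17902 genes), so differences of the size seen in Nr3c1 can be missed in other members.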

Other observations

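The genes whose deviations from group means were most like those of each member were looked up among 15479 genes over 35 libraries, as a description only, since all share the depth and dissection of a library. For Oxt these were Trh, the thyrotropin-releasing hormone gene also made in the paraventricular nucleus (r = 0.75, rho = 0.79), Gpx3 (r = 0.72) and Prmt2 (r = 0.71). Avp followed Oxt at r = 0.68 and rho = 0.59. None of Trh, Gpx3 and Prmt2 was called on fasting in either genotype. For Fkbp4 the closest were Rab5c (r = 0.90), Pebp1 (r = 0.89) and Ube2s (r = 0.87), and for Hsd11b1 they were Apoo (r = 0.78), Mrpl30 (r = 0.78) and Rpl17 (r = 0.75). Of these 6, Rpl17 was called in 1 of the comparisons, lower in fed S662D mice (−0.23, adjusted p 0.0127). For Crh they were Ets2 (r = 0.66), Gabrr2 (r = 0.65) and Agbl3 (r = 0.64). Gabrr2, a GABA receptor subunit, was higher on fasting by 0.90 on the log2 scale in controls (adjusted p 6.96e-05) and by 1.23 in S662D groups (adjusted p 0.000167), while Crh was not called. For Crhr1, Crhr2, Ucn3 and Nr3c2 the closest genes were Slc30a3 (r = 0.62), Wnt4 (r = 0.64), Rad51c (r = 0.65) and Foxn2 (r = 0.73).

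The 2 corticosteroid receptors also moved together within groups while Nr3c1 ran against Fkbp4 (r = −0.51, rho = −0.48). Over the same libraries Nr3c1 rose with the length index (r = 0.62) and Fkbp4 fell with it (r = −0.79). The part of the index in their correlation was not tested.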
